A study of Mus musculus with 10 samples.

Results

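Deubiquitinases remove ubiquitin from proteins, and 76 mouse genes of this kind were looked up in the lists of promoters occupied by ARID2 in meiotic spermatocytes. They were chosen by symbol alone from 21774 protein-coding genes of the RefSeq annotation: the numbered Usp genes, the Otub and Otud genes, the Uch genes, Josd1 and Josd2, Cyld, Bap1, Stambp and Stambpl1. By family they were 56 ubiquitin-specific proteases (USP), 10 ovarian tumour proteases (OTU), 5 ubiquitin C-terminal hydrolases (UCH, Bap1 included), 2 Josephins, 2 JAMM metalloproteases and Cyld. The symbol rule also took in Usp6nl, which encodes a GTPase-activating protein for RAB proteins, and Usp39, a splicing factor without deubiquitinase activity.

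CUT&RUN, in which an antibody directs a nuclease to cut out the chromatin under a protein, was performed on spermatogenic cells of CD1 mice. Spermatogenesis was synchronized by feeding WIN18,446, which blocks retinoic acid synthesis, from P1 to P10 (postnatal days 1 to 10) and injecting retinoic acid at P11. Cells were taken at P28, 17 days after the injection, and at P28.5, 17.5 days after it. They were populations enriched for late prophase-I and metaphase spermatocytes rather than pure stages. The paper reports more round spermatids and markedly lower proportions of early prophase-I (leptotene and zygotene) spermatocytes at P28.5. The ages therefore differed in cell make-up. Each age had 5 libraries. The ARID2 pair (n = 2) targeted the subunit that sets the PBAF form of the SWI/SNF chromatin remodeler apart, another pair targeted its ATPase BRG1 with a different antibody in each, and 1 control had no antibody to a target. The labels name neither genotype nor any agent beyond these, and all groups shared the same synchronization. The BRG1 libraries were not analysed here.

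The data used were 2 lists, one per age, of the transcription start sites (TSSs) that k-means clustering placed in the ARID2-occupied cluster, cluster-1 (Cl-1). Each row holds a genomic coordinate and the symbol of a gene but neither signal, strand, count nor depth, and a gene here counts as listed when any row carries its symbol. The P28 list had 11553 rows at 7144 positions and the P28.5 list 8514 rows at 5193 positions. Because the lists came from averaged replicates, no replicate error could be computed, and the intervals given are 95% Wilson intervals over genes, which describe counting error only. Most listed genes were on the plus strand, and minus-strand genes seldom had their start in the lists: over all genes, 26% of those on the plus strand and 7.61% of those on the minus strand were in the P28 list, while the P28.5 list held 20.4% and 2.86%. The strands are therefore reported apart wherever it matters. Listing records a place in the ARID2-occupied cluster, not expression. The authors report that a smaller part of the enriched TSSs overlapped called peaks of ARID2 signal at P28.5 than at P28. They also called far more peaks at P28, so the overlaps do not compare the quality of the lists. Of 12 meiotic spermatocyte marker genes, 3 were listed at each age (Sycp3 at both), as were 2 of 9 spermatid markers at P28 and none at P28.5, and 1 of 6 Sertoli cell markers at P28 (Cldn11). No marker of spermatogonia (of 7, Uchl1 among them) or Leydig cells (of 6) was listed. Over all genes, 16.8% were in the earlier list and 11.6% in the later one. Of the markers with rows in the earlier list, Sycp2, Tex101, Spaca1 and Cldn11 had none of its positions within 2000 bp of an annotated 5′ end. Their rows are therefore not read as occupied marker promoters. The 3 meiotic markers in the later list each had such a position. These lists cannot say which cells were in the samples.

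Ubiquitin is attached to proteins by a cascade of activating (E1), conjugating (E2) and ligating (E3) enzymes, and marks them for the proteasome, for sorting or for signalling. Deubiquitinases reverse the mark, trim chains and recycle free ubiquitin. Their substrates include histones, DNA repair proteins and regulators of chromosome segregation, and several members of the group are strongly expressed in the testis.

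Promoters are shown first for the 4 members with most rows among those listed at both ages (Cyld, Usp48, Josd2 and Usp2) and the first 4 among those listed at P28.5 only (Uchl3, Otub2, Usp8 and Bap1), so that the starts the lists name can be read beside their letters. The Usp2 window is that of an inner start with 2 rows at P28 and 0 at P28.5. Each is a 300-base window of mm10 from 250 bases before to 50 after an annotated start, written 5′ to 3′ on the plus strand. They are RefSeq windows (GRCm38.p6). Capitals mark matches, on either strand, to letters searched in all promoters. These were GCATGCG for the factor NRF1, CCGGAAG for ETS factors, TGACGTC for the cyclic AMP response element (CRE), TGACG for the core of that element (also contained in it), GGGCGG for the factor SP1, CCAAT for the box of that name, GATGGCG for the factor YY1, CACGTG for the E-box, TATAAA for the TATA box and TAACNG for MYB factors.
Cyld, chr8:88696778-88697077 (+): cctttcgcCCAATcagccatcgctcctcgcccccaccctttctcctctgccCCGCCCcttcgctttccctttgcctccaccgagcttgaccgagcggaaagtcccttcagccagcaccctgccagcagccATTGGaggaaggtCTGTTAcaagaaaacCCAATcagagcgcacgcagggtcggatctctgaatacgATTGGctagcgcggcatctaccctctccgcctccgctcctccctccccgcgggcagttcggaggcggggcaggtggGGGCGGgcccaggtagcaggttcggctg
Usp48, chr4:137593922-137594221 (+): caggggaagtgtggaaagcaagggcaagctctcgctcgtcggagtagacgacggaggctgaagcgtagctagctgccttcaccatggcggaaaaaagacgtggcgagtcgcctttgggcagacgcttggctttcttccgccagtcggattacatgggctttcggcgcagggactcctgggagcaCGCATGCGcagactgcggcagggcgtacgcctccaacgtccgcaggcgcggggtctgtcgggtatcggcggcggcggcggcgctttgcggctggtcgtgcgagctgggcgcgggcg
Josd2, chr7:44467730-44468029 (+): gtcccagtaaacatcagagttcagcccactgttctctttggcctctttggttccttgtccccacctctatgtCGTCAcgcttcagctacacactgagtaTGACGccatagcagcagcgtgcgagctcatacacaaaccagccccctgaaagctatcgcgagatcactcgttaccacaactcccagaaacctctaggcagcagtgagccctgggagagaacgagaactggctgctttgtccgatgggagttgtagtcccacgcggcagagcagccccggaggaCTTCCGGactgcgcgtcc
Usp2, inner start, chr9:44084670-44084969 (+): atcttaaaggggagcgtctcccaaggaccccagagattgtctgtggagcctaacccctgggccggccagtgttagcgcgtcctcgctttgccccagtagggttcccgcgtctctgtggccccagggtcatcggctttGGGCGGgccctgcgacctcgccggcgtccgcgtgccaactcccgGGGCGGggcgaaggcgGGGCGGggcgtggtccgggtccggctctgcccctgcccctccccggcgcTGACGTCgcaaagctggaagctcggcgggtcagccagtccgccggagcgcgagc
Uchl3, chr14:101653717-101654016 (+): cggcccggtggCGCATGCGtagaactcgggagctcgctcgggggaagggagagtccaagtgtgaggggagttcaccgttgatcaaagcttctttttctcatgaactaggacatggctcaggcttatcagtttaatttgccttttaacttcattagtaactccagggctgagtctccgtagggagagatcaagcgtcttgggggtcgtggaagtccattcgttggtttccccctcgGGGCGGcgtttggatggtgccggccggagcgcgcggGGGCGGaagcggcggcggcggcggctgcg
Otub2, chr12:103388431-103388730 (+): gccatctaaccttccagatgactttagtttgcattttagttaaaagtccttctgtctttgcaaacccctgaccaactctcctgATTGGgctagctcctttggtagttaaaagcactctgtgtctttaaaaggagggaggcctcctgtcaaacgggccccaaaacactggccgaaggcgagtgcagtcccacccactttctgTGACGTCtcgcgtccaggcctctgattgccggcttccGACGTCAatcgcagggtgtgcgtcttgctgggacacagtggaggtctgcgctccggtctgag
Usp8, chr2:126707078-126707377 (+): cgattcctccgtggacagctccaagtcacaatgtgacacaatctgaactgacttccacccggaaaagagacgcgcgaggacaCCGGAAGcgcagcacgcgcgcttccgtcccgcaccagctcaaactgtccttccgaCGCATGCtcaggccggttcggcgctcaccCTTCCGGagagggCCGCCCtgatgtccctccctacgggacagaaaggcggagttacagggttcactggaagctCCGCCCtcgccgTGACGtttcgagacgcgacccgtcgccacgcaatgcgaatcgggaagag
Bap1, chr14:31251239-31251538 (+): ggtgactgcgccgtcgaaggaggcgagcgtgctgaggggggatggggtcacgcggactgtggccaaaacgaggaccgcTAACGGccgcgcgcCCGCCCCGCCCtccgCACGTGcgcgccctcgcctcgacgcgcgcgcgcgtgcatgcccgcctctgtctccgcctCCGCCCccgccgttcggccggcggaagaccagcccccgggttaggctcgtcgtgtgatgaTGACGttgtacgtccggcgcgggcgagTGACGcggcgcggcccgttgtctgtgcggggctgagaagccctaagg

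Counting bases from the first one printed, the annotated start on which each window was built is base 251. Listed positions are starts in the annotation the authors used, so their closeness to it was set by how the lists were made. In Cyld they were at bases 224, 227, 251, 257 and 272, in Usp48 at 228, 229, 231, 232 and 268, and in Josd2 at 251 and 261. The P28.5-only positions were at bases 165, 174, 179 and 251 in Uchl3, 251 and 252 in Otub2, 124 and 251 in Usp8, and 216 and 251 in Bap1. The 2 CRE matches of Otub2 began at bases 202 and 239, and the CRE match of the inner Usp2 window at base 247, between its listed positions at bases 236 and 251.

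At P28, 17 of the 76 genes were listed (22.4%, 14.5 to 32.9%), beside 16.8% of all protein-coding genes. At P28.5, 17 were again listed (22.4%), beside 11.6%. The sets were not the same: 11 genes were listed at both ages (14.5%, 8.28 to 24.1%, background 8.48%), 6 at P28 only (7.89%, background 8.33%) and 6 at P28.5 only (7.89%, background 3.13%). In all, 23 were listed at one age or the other (30.3%, background 19.9%) and 53 at neither. The interval at P28 included the background share, and the interval at P28.5 lay above it.

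The members also differed from all genes in make-up. Deubiquitinase promoters were rich in CpG dinucleotides, with a median observed-to-expected CpG ratio of 0.747 against 0.516 for all genes, and 30 of the 76 were in the highest of 5 CpG classes. When all genes were reweighted to the members' strand, CpG class and sex-chromosome make-up, the background became 20.8% for the P28 list, 17% for the P28.5 list and 12.4% for both, which corresponds to 15.8, 12.9 and 9.44 genes against the 17, 17 and 11 observed. All 3 reweighted shares lay within the members' intervals. In the highest CpG class, 8 of 30 members were listed at P28 (26.7%, all genes 28.8%) and 9 at P28.5 (30%, all genes 27%). In the lower classes the members' shares were above those of all genes, but on counts of 1 to 4 genes per class.

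**Figure D1:**
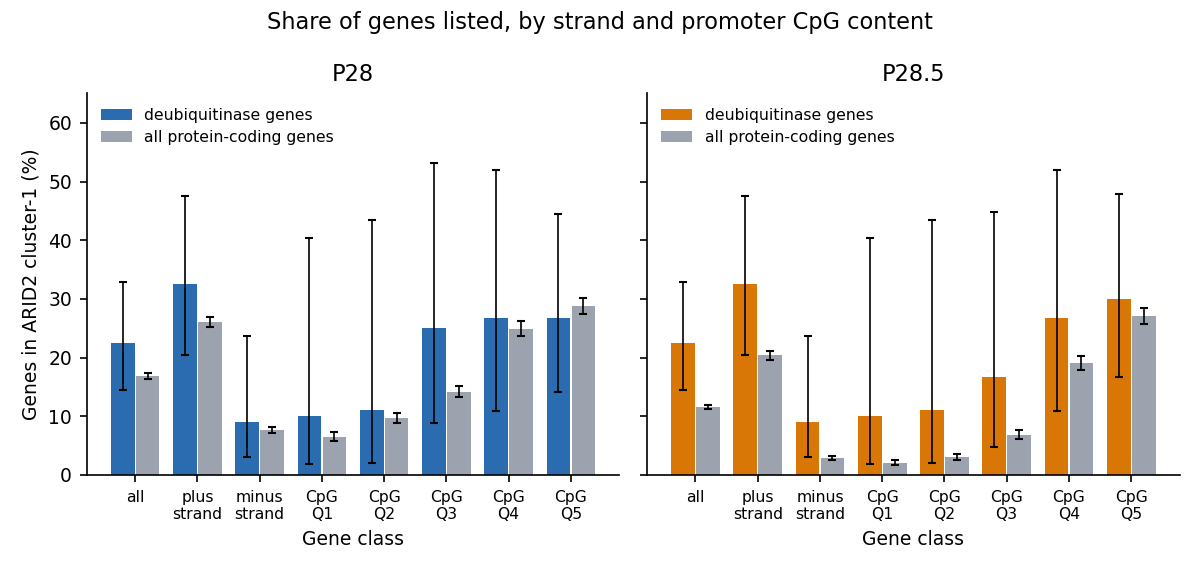
Share of genes in ARID2 cluster-1 (y axis, percent) at P28 and P28.5 for all genes, for each strand and for 5 classes of promoter CpG content (x axis, Q1 lowest to Q5 highest). Coloured bars are the deubiquitinase genes, grey bars all protein-coding genes, and error bars 95% Wilson intervals. The members' interval lies above the grey bar for all genes at P28.5 (22.4% against 11.6%), while in Q5 the bars are 30% and 27%.

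Strand divided the members as it divided all genes. Of 43 plus-strand members, 14 were listed at each age (32.6%, 20.5 to 47.5%), beside 26% and 20.4% of all plus-strand genes. Of 33 minus-strand members, 3 were listed at each age (9.09%, 3.14 to 23.6%), beside 7.61% and 2.86%. On the plus strand 9 members were listed at both ages and 19 at either, so the 24 others are plus-strand genes that a list could have held and did not. For the 29 unlisted minus-strand members, absence from the lists does not show absence of ARID2.

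By family, the P28 list held 14 of the 56 USP genes (25%, 15.5 to 37.7%, all genes 16.8%) and the P28.5 list 10 (17.9%, 10 to 29.8%, all genes 11.6%), with 8 in common. None of the 10 OTU genes was in the P28 list (upper limit 30%), and 2 were in the P28.5 list (20%, 5.67 to 51%). The USP and OTU intervals include the shares over all genes and overlap each other. Of the 5 UCH genes 1 was listed at P28 (20%, 3.62 to 62.4%) and 3 at P28.5 (60%, 23.1 to 88.2%), on 5 genes and untested. Josd2 and Cyld were listed at both ages, and neither JAMM gene was listed at either.

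**Figure D2:**
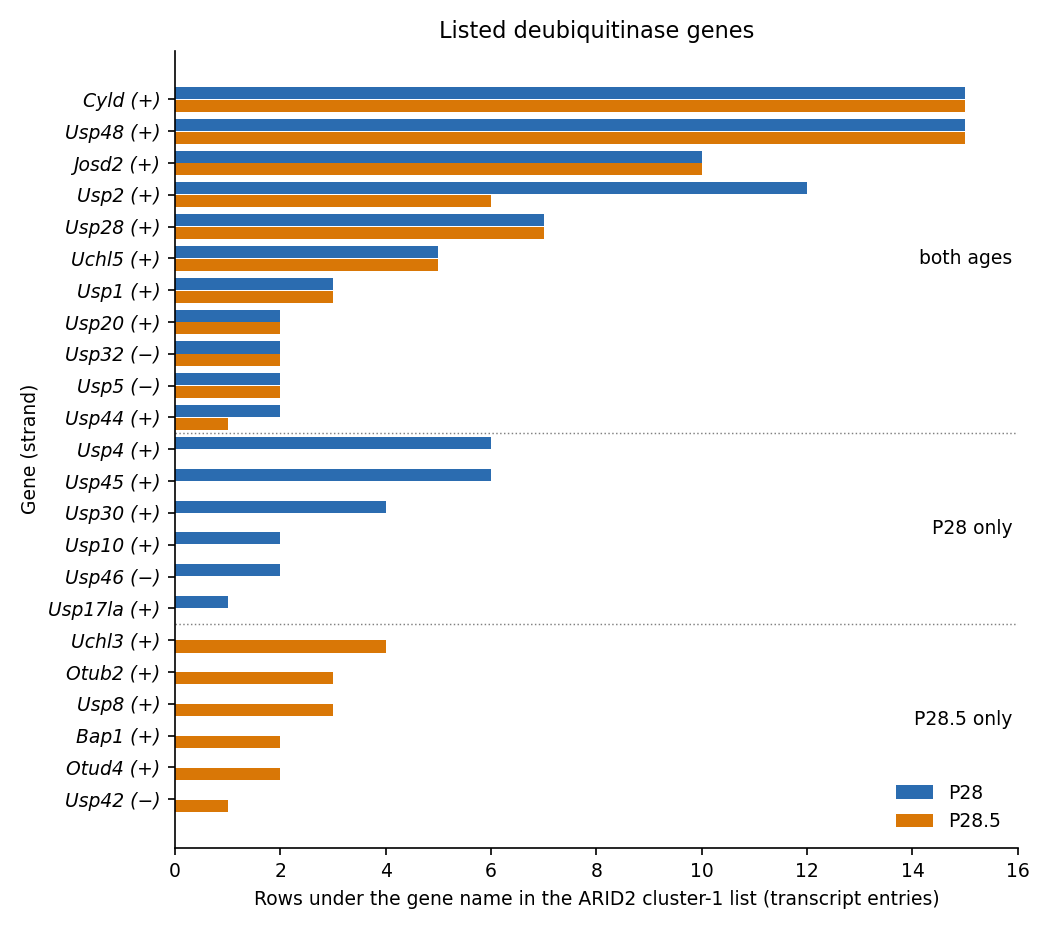
Number of rows under each gene's symbol (x axis) in the P28 (blue) and P28.5 (orange) lists for the 23 listed genes (y axis, strand in brackets). The 11 genes listed at both ages mostly have equal bars, and 6 genes each have a bar at one age only.

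Genes listed at both ages kept nearly the same positions. The 76 genes together had 60 positions in the earlier list and 50 in the later one, with 37 identical, 61.7% of the first set and 74% of the second (all genes 53.3% and 70.6%). For 9 of the 11 genes the positions at both ages were the same, with Usp2 and Usp44 as the exceptions (all genes 1524 of 1847).

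Cyld, a signalling deubiquitinase that cuts linear and lysine-63-linked chains and restrains NF-kB, had 15 rows at each age. They lay at 8 positions on chromosome 8 between 88697001 and 88697418, in annotated 5′ UTR, and all 13 of its 5′ ends were within 500 bp of one. Usp48, a nuclear deubiquitinase, also had 15 rows at each age, at 6 positions on chromosome 4 from 137594149 to 137594228. Josd2, a Josephin related to ataxin-3, had 10 rows at each age at 5 positions on chromosome 7 from 44467980 to 44468098, and 5 of the rows were at the first of these. These counts follow the number of annotated transcripts (21, 20 and 12) and are not a strength of binding. Members listed at both ages had a median of 9 annotated transcripts and unlisted members a median of 4 (all genes 4 and 2).

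Usp1, Usp28, Usp44, Uchl5, Usp20, Usp5 and Usp32 were also listed at both ages. Usp1, which with WDR48 removes ubiquitin from FANCD2 and PCNA, had 3 rows at each age on chromosome 4. Of these, 2 were at its annotated start, 98923810, and 1 was 187 bp upstream. Usp28, a partner of 53BP1, had 7 rows at each age on chromosome 9, at 48985333, 48985334 and 48985385, which are within 1 bp of annotated starts. Usp44, a regulator of the spindle assembly checkpoint, had 2 rows at P28 and 1 at P28.5. Its position at 93833921 on chromosome 10 was listed at both ages and the one at 93834130 at P28 only. Both are annotated starts 13952 and 14161 bp inside the outermost start, and 4 of the gene's 13 annotated 5′ ends were within 500 bp of one of them. The CpG ratio was 0.437 at the outer start and 0.895 at the listed position.

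Uchl5, which trims chains at the proteasome, had 5 rows at each age on chromosome 1, with 3 at 143777218, upstream of the gene, and 2 at the annotated start 143777278. Usp20 had 1 row each at 30982279 and 30982284 on chromosome 2 at both ages, the first of them its annotated start. Usp5, which takes apart unanchored ubiquitin chains, had 2 rows at each age at a single position, 124829506 on chromosome 6. Usp32, a membrane-anchored deubiquitinase, had 1 row each at 85140088 and 85140098 on chromosome 11 at both ages.

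Usp2 was the member whose listed positions differed most between the ages. It encodes long and short isoforms from alternative promoters and is known as a circadian output gene. At P28 it had 12 rows at 11 positions, and at P28.5 it had 6 rows at 5. The 5 positions shared by both ages lay on chromosome 9 from 44067021 to 44067157, within 136 bp of the outermost start. At P28 alone there were 2 more near the start at 44069429, 2.41 kb inside, and 4 from 44084905 to 44085267, from 17.9 to 18.2 kb inside, of which the last 2 are in a coding exon. Of 9 annotated 5′ ends, 7 were within 500 bp of a P28 position and 4 of a P28.5 position. The window printed for the inner start held 33 CpGs. The lists hold no signal, so the size of the change at the inner starts cannot be given.

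**Figure D3:**
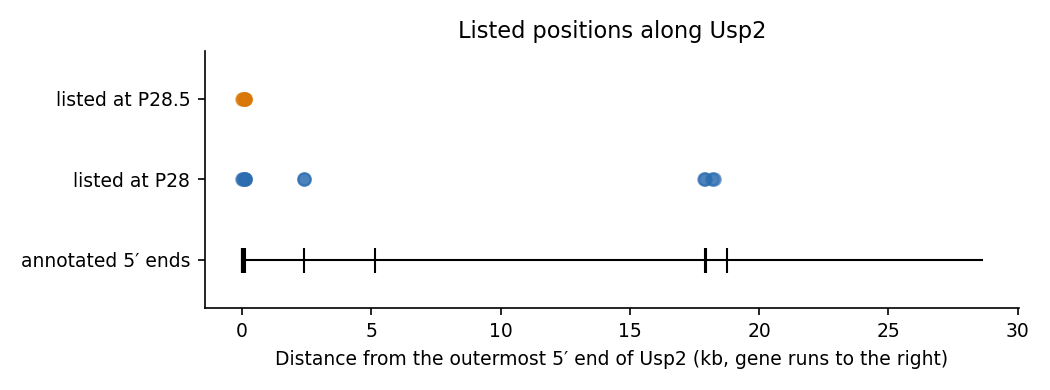
Listed positions along Usp2 (x axis, kb from its outermost 5′ end, gene running to the right) at P28.5 (orange, top) and P28 (blue, middle), above the annotated 5′ ends (black ticks, bottom). Both ages have positions at the outer start, and the P28 list alone has positions near 2.41 kb and from 17.9 to 18.2 kb.

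At P28 only, 6 members were listed. Usp4, a USP that acts on TGF-beta receptor signalling, had 6 rows at 4 positions on chromosome 9 from 108347818 to 108347831, at a start 1254 to 1267 bp inside the outermost one. Usp45, which acts on the repair nuclease subunit ERCC1, had 6 rows at 4 positions on chromosome 4 from 21776215 to 21776368, 9054 to 9207 bp inside. Usp30, the mitochondrial deubiquitinase that opposes parkin, had 1 row at each of 4 positions on chromosome 5 from 114100328 to 114100435. Usp10, a partner of G3BP1, had 2 rows at 119910946 on chromosome 8, an annotated start 586 bp inside the outermost one. Usp17la, one of 5 closely similar Usp17-like genes among the members, had 1 row at its annotated start, 104857016 on chromosome 7, where the CpG ratio was 0.123. The similarity of these copies leaves that row uncertain, and the other 4 copies were not listed. Usp46, which acts with WDR48 and WDR20, is described with the minus-strand genes.

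At P28.5 only, another 6 members were listed, a larger part of the genes listed at one age (6 of 12, 50%) than over all genes (681 of 2495, 27.3%), though on 12 genes. This contrast was not reweighted for strand or CpG class. Among all plus-strand genes of the highest CpG class, 272 were listed at P28.5 only and 254 at P28 only. Uchl3, a UCH hydrolase, had 1 row at each of 4 positions on chromosome 14 from 101653881 to 101653967. Otub2, an OTU protease, had 3 rows on chromosome 12, at the annotated starts 103388681 and 103388682 and, in a coding exon, at 103388948. These starts lie 11787 bp or more inside the outermost one, and the CpG ratio was 0.154 at the outer start and 0.729 at the middle listed position. Usp8, which acts on endosomal sorting with STAM and HGS, had 1 row at 126707201 and 2 at 126707328 on chromosome 2, both annotated starts. Bap1, which removes ubiquitin from histone H2A, had 1 row at 31251454 and 1 at its annotated start 31251489 on chromosome 14. The start of Phf7, a ubiquitin ligase gene of the testis on the other strand, was 8 bp from a start of Bap1. Otud4 had 2 rows at its annotated start, 79639676 on chromosome 8. Usp42 had 1 row, described with the minus-strand genes.

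The single-age genes mostly had no listed position near them at the other age. For the 6 P28-only members the closest listed position of any gene at P28.5 was 24672 to 543092 bp from a 5′ end. The smallest distance was at Usp46, and it was the same at P28. For the P28.5-only members the closest at P28 was 1399 to 249693 bp away, the smallest of these at Usp42. Whether such a gene lay just under the boundary of the cluster cannot be read from the lists, because they hold no signal. Differences between the ages were not tested, since each list is a single result from pooled libraries.

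**Figure D4:**
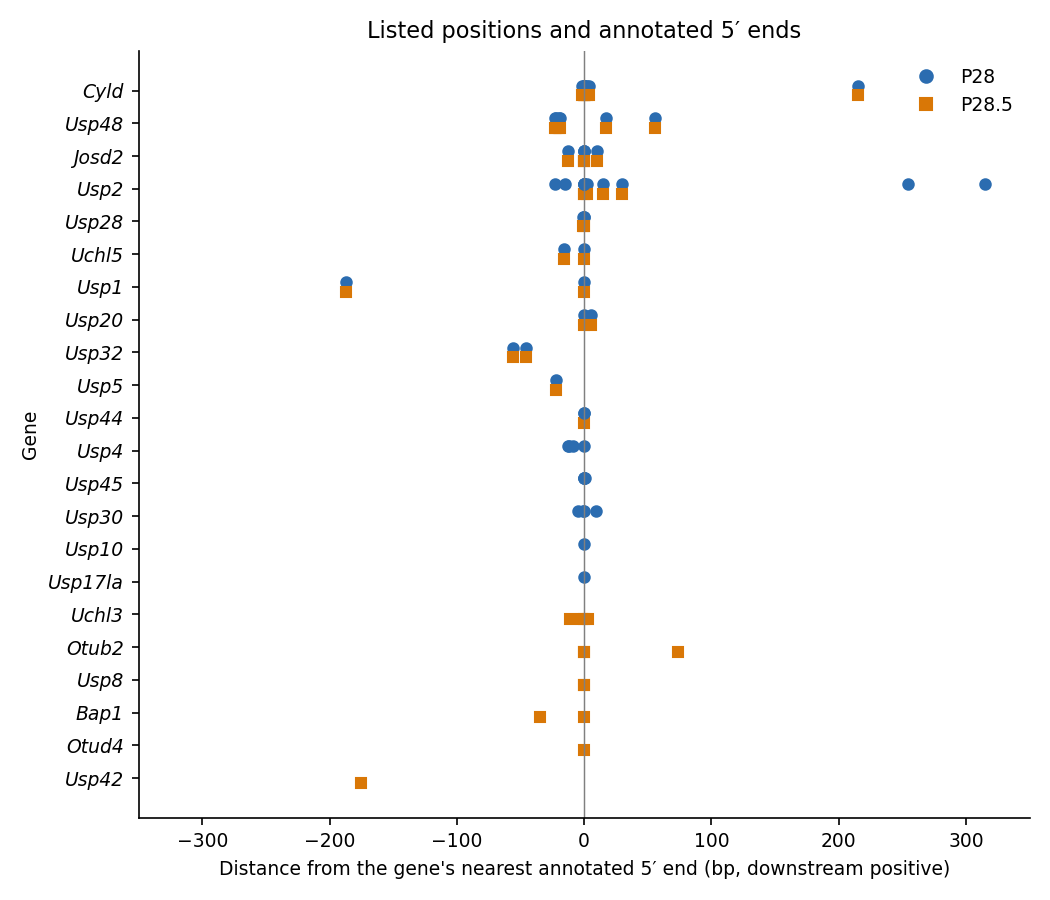
Distance of each listed position from the nearest annotated 5′ end of its own gene (x axis, bp, downstream positive) for 22 listed genes (y axis), at P28 (blue circles) and P28.5 (orange squares). Most points lie within 30 bp of 0, as annotated starts must, and Usp46, whose positions are 35598 bp or more away, is left out.

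The clustered positions were annotated TSSs to begin with, so their closeness to 5′ ends shows how well the annotation used here matches that of the lists, and not where on the promoter ARID2 lay. At P28, 58 of 60 member positions (96.7%) were within 500 bp of a 5′ end of the gene named, beside 83% over all genes, and at P28.5 all 50 were, beside 98%. The median distance was 2 bp at each age, and 24 positions at P28 and 21 at P28.5 were exactly at a 5′ end (40% and 42%, all genes 42.3% and 49.3%). By annotation 42 positions were in 5′ UTR, 13 in exons that are 5′ UTR in one transcript and non-coding in another, 1 in a non-coding exon, 5 in coding exons, 5 in introns, 5 upstream of the gene, 1 downstream and 1 in a 3′ UTR.

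The 4 listed minus-strand members each had a row at or close to another annotated end. The Usp5 position was 22 bp upstream of its own 5′ end and 24 bp from the plus-strand start of Cdca3, a cell division gene, which itself was listed 692 bp from the Usp5 end at P28.5 only. The Usp32 positions were 46 and 56 bp from a Usp32 5′ end, and the second of them was 75 bp from the plus-strand start of 1700125H20Rik. The Usp42 position, 143732455 on chromosome 5, was 175 bp from a Usp42 5′ end and equalled the start of the plus-strand non-coding gene Gm38737. Usp46 had no listed position within 2000 bp of any of its 5′ ends. Its rows at P28 were at 74000038 on chromosome 5, in its 3′ UTR and equal to the lower end of a Usp46 transcript, and at 73912889, which equalled the start of the plus-strand non-coding gene 1700019F05Rik. With no strand in the lists, occupancy of the pair of starts cannot be divided between neighbours.

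A few unlisted members had a listed position under a neighbour's name. Usp35 had rows of Kctd21 at 8 and 15 bp from its 5′ end at both ages, and Usp37, which acts on cyclin A, had rows of Cnot9 at 121 and 141 bp at both ages. Otud7a had a row of E030018B13Rik 1 bp from one of its 5′ ends at P28. At Usp42 a row of D130017N08Rik was 1399 bp from a 5′ end at P28. Rows of any name no farther than 2000 bp from a 5′ end were also counted. This gave 20 members at P28 (26.3%, 17.7 to 37.2%, background 17.3%), 19 at P28.5 (25%, 16.6 to 35.8%, background 14.8%) and 14 at both ages (18.4%, 11.3 to 28.6%, background 10.9%). These intervals all lay above the background but included the reweighted shares of 22.1%, 20.9% and 15.4%. Of the 33 minus-strand members, 2 had a listed position within 2000 bp of a 3′ end at P28, Usp46 and Usp43, the latter under the name Dhrs7c, and none did at P28.5.

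Sex-linked members were not listed. The X chromosome carries 7 of them: Usp9x, Usp11, Usp26, Usp27x, Usp51, Otud5 and Otud6a. None of the 7 was listed at either age (upper limit 42.9%), and Usp9y on the Y chromosome was not listed either. Over all 963 X-linked protein-coding genes 0% were in the P28 list and 2 genes (0.208%) in the P28.5 list, so the members followed the chromosome as a whole. Both sex chromosomes are silenced in pachytene spermatocytes, and the part of that silencing in these lists was not tested. Among autosomal members 17 of 68 (25%) were listed at each age, beside 17.8% of all autosomal genes at P28 and 12.3% at P28.5.

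Among 30 pairs of family relatives, some of which share a gene, 15 had neither gene listed, 14 had one and 1 had both, Uchl5 and Bap1. With 23 of 76 members listed in all, few pairs with both listed could occur, and nothing about relatives is read from these counts. Unlisted partners on the plus strand, whose starts the lists could hold, were Usp25 beside Usp28, Usp33 beside Usp20, Usp16, a histone H2A deubiquitinase, beside Usp45, Usp49 beside Usp44, Usp13 beside Usp5, Uchl1 and Uchl4 beside Uchl3, and X-linked Usp11 beside Usp4. Minus-strand partners that were not listed were Usp12, Usp15, Usp21, Usp36, Otub1 and Josd1. Usp22, Usp3 and Usp7, which act on histones or on the p53 regulator MDM2, are also minus-strand genes and were not listed.

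The CpG content of members overlapped widely between listed and unlisted genes. The median ratio was 0.814 for members listed at both ages, 0.807 at P28.5 only, 0.594 at P28 only and 0.686 at neither, beside 0.782, 0.773, 0.61 and 0.423 over all genes. At the outermost starts P28-only members thus lay below unlisted members, whereas over all genes P28-only genes lay above unlisted ones. Values ran from 0.437 to 1.02 for members listed at both ages and from 0.0215 to 1.02 for unlisted ones. The ratio was taken at the outermost start, so a gene listed at an inner start could have a low value. At the middle listed position it was 0.948 for Usp10 (0.747 at the outer start), 0.899 for Usp4 (0.253) and 0.636 for Usp45 (0.441). It was 0.861 for Usp30 (0.878), 0.123 for Usp17la (0.123) and 0.314 for Usp46 (0.82). The low median of P28-only members is therefore not read as a trait of the listed positions.

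**Figure D5:**
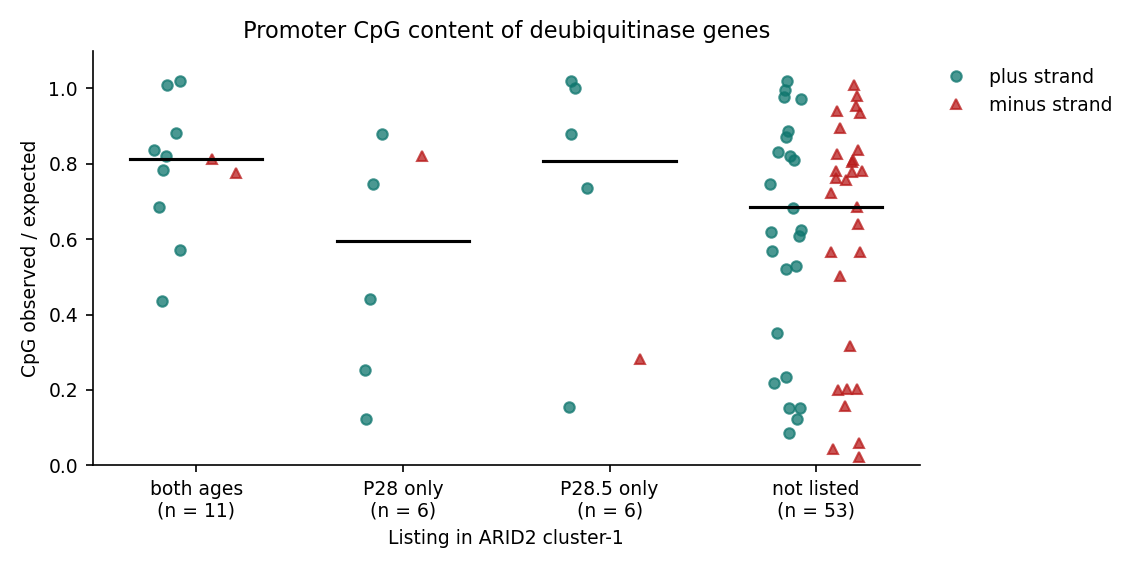
Observed-to-expected CpG ratio within 500 bp of the outermost 5′ end (y axis) of each of the 76 deubiquitinase genes, by listing in ARID2 cluster-1 (x axis). Circles are plus-strand and triangles minus-strand genes, and black lines are medians, 0.814 for genes listed at both ages and 0.686 for unlisted genes.

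Another start on the opposite strand within 1000 bp was annotated for 6 of the 11 members listed at both ages, 2 of the 6 at P28 only, 3 of the 6 at P28.5 only and 11 of the 53 unlisted ones. Among the listed members these neighbours included Ro60, 171 bp from Uchl5, and Tstd3, 50 bp from Usp45. The share over all genes was not computed, and 29 of the 53 unlisted members are minus-strand genes. Nothing about listing is therefore read from these counts.

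Motif matches were counted in 68 RefSeq windows of 61 members, in the 18 of them (17 genes) that held a listed position, and in 21263 windows of all protein-coding genes. SP1 letters were in 60.3% of member windows, 72.2% of those with a listed position and 46.2% of all windows. The CRE core was in 35.3%, 44.4% and 23.6%, the CRE in 8.82%, 16.7% and 3.84%, and the NRF1 letters in 7.35%, 16.7% and 4.44%, where 16.7% stands for 3 windows. The TATA letters were in 7.35% of member windows, in none of the 18 with a listed position and in 12.6% of all. The ETS letters (14.7%, 16.7% and 11.6%) and the E-box (13.2%, 16.7% and 7.84%) were also above all windows, while CCAAT (35.3%, 33.3% and 38.2%) was below. The MYB letters (22.1%, 22.2% and 21%) were near the share of all windows. The YY1 letters were in 10.3%, 5.56% and 4.29%, where 5.56% stands for 1 window. The YY1 share was lower in windows with a listed position than in all member windows. In windows of unlisted members SP1 letters were in 57.4%, the CRE core in 31.9%, the CRE in 6.38%, NRF1 letters in 4.26% and ETS letters in 14.9%. All of these letters contain a CpG, and members were richer in CpG than all genes. Shares in listed windows of all genes were not computed, so nothing about listing is read from the matches. A match is a description of the letters and was not tested.

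Genes that act with the deubiquitinases were listed as follows. The P28 list held 15 of 29 partner genes (51.7%) and the P28.5 list 14 (48.3%), with 10 in common, beside 16.8% and 11.6% of all genes and 26% and 20.4% of plus-strand genes. For BAP1, Asxl1, Kdm1b and Mbd5 were listed at both ages, Asxl2 and Foxk2 at P28.5 only like Bap1 itself, Asxl3 and Mbd6 at P28 only, and Foxk1, Hcfc1 and Ogt at neither. For USP8, Stam and Hgs were listed at both ages and Stam2 at neither, and for USP10 G3bp1 was listed at both. For UCHL5, the proteasome receptor gene Adrm1 was listed at P28 only and the INO80 subunit gene Nfrkb at P28.5 only. Wdr20, the partner of USP12 and USP46, was listed at both ages with 8 rows at P28 and 2 at P28.5, and Wdr48 was not listed. The unlisted Usp22 belongs to the SAGA deubiquitinase module, of which Eny2 and Atxn7l2 were listed at both ages Atxn7l1 at P28.5 only, and Atxn7 and Atxn7l3 at neither. Of the BRCC36 complex, Babam1 was listed at both ages Babam2 and Abraxas2 at P28 only, and Abraxas1 and the enzyme gene Brcc3 at neither. The remaining partners, Gmps and Spata2, were not listed, though a listed position lay within 2000 bp of a Gmps 5′ end at both ages. Among the unlisted genes named here, Hcfc1, Ogt and Brcc3 are X-linked. Hcfc1, Stam2, Atxn7l3, Abraxas1 and Spata2 are minus-strand genes, for which absence from the lists does not show absence of ARID2. Of the 29, 22 are plus-strand genes, a larger part than of the members.

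Another list held 18 other deubiquitinases and related genes outside the symbol rule. Of these, 5 were in the P28 list (27.8%) and 8 in the P28.5 list (44.4%), beside 16.8% and 11.6% of all genes. The shares include Cops5, Uspl1 and Pan2, which do not encode deubiquitinases. Without them, only Mindy2 and Mindy4 were in the P28 list. Mindy2, Mindy4, Cops5 (the COP9 signalosome subunit that removes NEDD8), Uspl1 (a SUMO protease) and Pan2 (a deadenylase with an inactive USP fold) were listed at both ages, and Yod1, Zranb1 and Mysm1 at P28.5 only. The 30 E2 genes had 12 in the P28 list (40%) and 13 in the P28.5 list (43.3%), again beside 16.8% and 11.6%, with 11 in common, among them Ube2b, which is required for male fertility, Ube2c, the E2 of the anaphase-promoting complex, and Ube2t. Ube2e3 was listed at P28 only, and Ube2j2 and Ube2v1 at P28.5 only. Of 7 ubiquitin and E1 genes, Ubb and Rps27a were listed at both ages (28.6%) and no other was. The 4 gene lists were not tested, and nothing particular to any of them is read from the shares.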

How the data were processed

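CUT&RUN reads were trimmed, aligned to mm10 with Bowtie2, handled with SAMtools and turned into coverage with deepTools by the authors, who scaled the tracks, took log2 ratios to the control without antibody, averaged replicates and clustered RefSeq TSSs by k-means. Each deposited list gives the genomic positions and gene symbols of cluster-1 TSSs at one age, in base pairs. They hold no depth, so its effect could not be measured. The RefSeq release was not given in the sources used here.

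Symbols were matched to the RefSeq annotation of GRCm38.p6, as written or by a synonym of 1 gene (4085 of 4095 names at P28 and 2702 of 2707 at P28.5). Positions were compared with 1-based annotated 5′ ends and used as deposited. Of the member positions, 40% at P28 and 42% at P28.5 equalled a 5′ end of the gene named. Listing by name was the count reported, and positions within 2000 bp or 500 bp of a 5′ end were alternatives. CpG content was taken within 500 bp of the outermost 5′ end and divided into 5 classes. Shares have 95% Wilson intervals, and a count of 0 allows up to 3 genes. No test was run across the group. Matching was tested on simulated data. Every listed member was named. Unlisted ones were named if sex-linked, near another name's row or related to a listed member, and Usp22, Usp3, Usp7 and the unlisted partner genes were added after their values were seen. Promoters were printed for members with most rows among those listed at both ages and at P28.5 only, in RefSeq windows that held a listed position, and 1 sequence is not reported here. Members and lists were chosen with earlier results of these data known. Protein identity within families was planned and not analysed here. Versions were numpy 2.4.6, Python 3.11.15, matplotlib 3.10.9 and scipy 1.17.1.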

Additional observations from a re-analysis of the deposited data

How the results depend on the processing

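All 19 alternative counts stayed within 1.5 times the count reported. They gave 14 to 20 listed members at P28, 14 to 19 at P28.5 and 9 to 14 at both ages, the lowest from plus-strand genes alone, where fewer genes were counted. The standing against the background did depend on the rule. Counting positions within 2000 bp, the intervals at P28 (17.7 to 37.2%) and at both ages (11.3 to 28.6%) lay above their backgrounds of 17.3% and 10.9%. By name these intervals included the background. Counting by distance added Usp35 and Usp37 at both ages and Otud7a at P28, added Usp42 at P28 at 2000 bp only, and removed Usp46 at P28, in 14 of 160 single-gene comparisons. Leaving out Usp6nl and Usp39, chosen after seeing the data, left 17 listed at each age of 74, as it had to, since neither gene was listed. Leaving out sex-linked members could not change the counts either, since none of them was listed. No paired analysis was possible because the lists came from averaged replicates and carry no value per replicate, and for the same reason leaving out each replicate was not run. The lists hold no signal, strand or depth. They cannot rank genes by occupancy, tell a gene below the boundary of the cluster from one without ARID2, or show the start of most minus-strand genes.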
